A study of Bos taurus with 44 samples.

Results

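LTBP3, TGIF1 and TGFB1I1 are 3 genes that act around transforming growth factor beta (TGF-beta), and they were chosen by their symbols from the 8073 genes named on a cattle cDNA array. Each is read by 1 probe with 2 adjacent spots, which were averaged. TGIF1 was picked for its low ratio in caruncular IVF-ET tissue against AI, and LTBP3 for its low intercaruncular ratio in SCNT against AI. What picked TGFB1I1 is not known, and its ratios against CJ may have done so. Values on which a gene was, or may have been, chosen are given below as a description, with no test.

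The 44 arrays each set 2 RNA samples of frozen cattle tissue against each other, 1 in the dye Cy3 and 1 in Cy5. The labels name an area, caruncular (where the placenta attaches in ruminants) or intercaruncular (between the caruncles), and no other tissue term. Values are log2 ratios of the 2 dyes, so they compare the samples of an array and give no level.

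The labels give 4 group names. AI stands for artificial insemination, IVF-ET for transfer of an embryo made by fertilisation in vitro, and SCNT for nuclear transfer from a somatic cell, that is cloning. CJ is glossed in the labels with the word cycle. IVF-ET met AI on 10 caruncular and 10 intercaruncular arrays, where 5 animals of each group were hybridised once in each dye. All 5 IVF-ET animals and 3 of these AI animals (named IAT in the labels) are in both areas. SCNT and AI met directly only on 4 caruncular arrays of pooled RNA, with 2 pools per group and dyes swapped. How many animals made up a pool, and which, is not in the labels. In the intercaruncular area, 5 SCNT animals were set against 5 CJ animals on 10 arrays, and 4 AI animals (named IAJ) against the same 5 CJ animals on 10 others. Age, breed, treatment other than the group and day of pregnancy or cycle are not in the labels used here.

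TGF-beta is secreted in a latent complex and must be freed before it can bind its receptors, which then phosphorylate SMAD proteins that switch genes on or off in the nucleus. LTBP3, latent TGF-beta binding protein 3, is a matrix protein that holds the latent complex. TGIF1 is a homeobox protein of the TALE class that acts as a corepressor with SMADs. TGFB1I1, also called Hic-5, is a LIM-domain protein of focal adhesions and a nuclear coactivator, known from smooth muscle and fibroblasts. In the uterine lining, TGF-beta signalling is known to take part in remodelling of the tissue around implantation.

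Nothing in the sources used here says which dye is on top in the ratio. Cy5 on top of Cy3 is the likely reading, since genes that interferon induces, and that the conceptus raises in early ruminant pregnancy, are then higher in both AI and SCNT animals than in CJ. Under the other reading every sign below turns. The 2 spots correlated over the 44 arrays with r = 0.91 for TGIF1, 0.81 for LTBP3 and 0.94 for TGFB1I1, and the spots of LTBP3 lay furthest apart on 1 pool array, by 1.22.

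AI animal B4 stood apart from the other AI animals that were set against CJ. Its mean over 20 interferon-stimulated genes was -0.16 against its CJ partners, while B2, B3 and B6 were at 2.37, 2.85 and 2.04 and the 5 SCNT animals at 2.05 to 2.41. B4 is on 4 of the 10 AI arrays, 2 of them with CJ animal B8. On the SCNT arrays, SCNT animals lay 2.09 above B8, within the 2.01 to 2.39 by which they lay above the 5 CJ animals. A low ratio was thus not seen on the SCNT arrays of this CJ partner. Results that rest on these AI animals are therefore given without B4 as well where leaving it out changes a call, a count or a value by much. The areas of tissue could not be checked against defining markers, since no array set one area against the other. Because tissue pieces were measured, fewer cells of a type and less RNA per cell cannot be told apart.

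**Figure D1:**
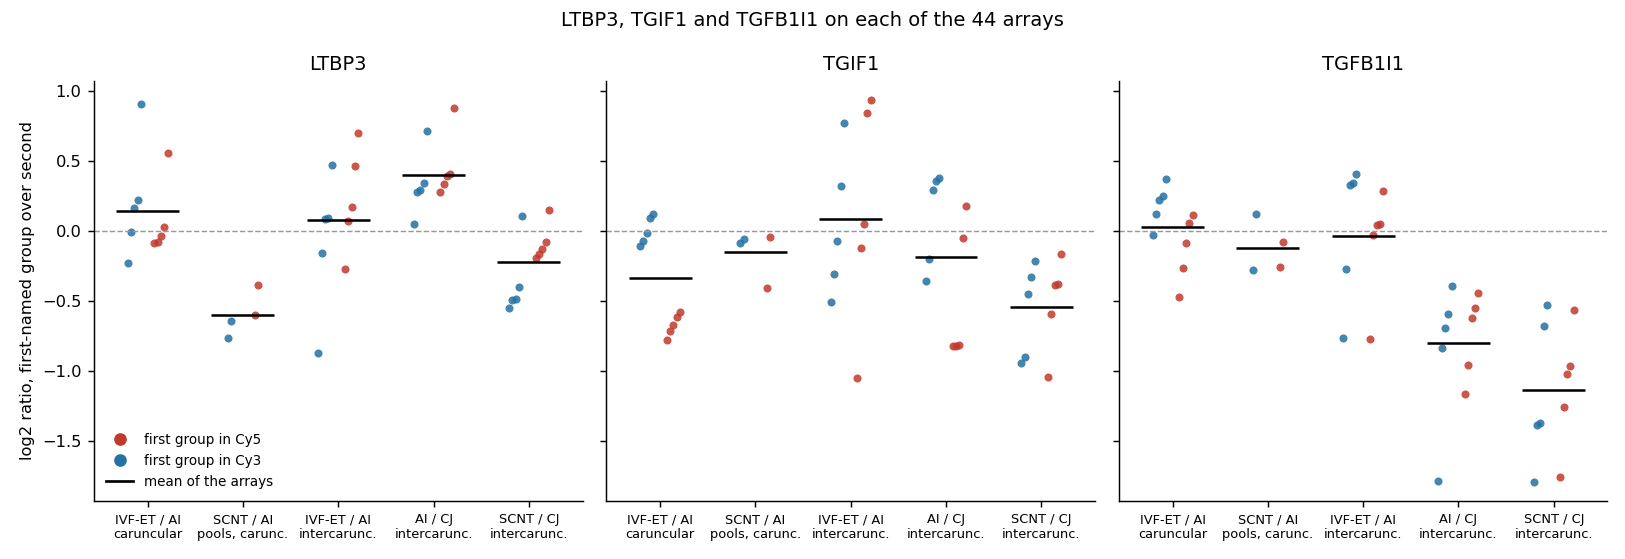
Log2 ratio of LTBP3, TGIF1 and TGFB1I1 on each of the 44 arrays (1 point per array, mean of 2 spots), turned so that a positive value means more in the group named first. Red points have that group in Cy5, blue points in Cy3, and bars are means of the arrays. TGFB1I1 lies below 0 on all 20 arrays with CJ, LTBP3 above 0 on the 10 AI arrays with CJ, and caruncular TGIF1 splits by dye.

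LTBP3 lay lower in SCNT than in AI samples by about the same amount in both areas. Against CJ, the intercaruncular ratios of LTBP3 in the 5 SCNT animals were -0.17 in B811, -0.34 in B873, -0.28 in B888, -0.04 in B902 and -0.28 in B904. In the 4 AI animals they were 0.35 in B2, 0.23 in B3, 0.55 in B4 and 0.31 in B6. Every SCNT animal was thus below 0 and every AI animal above it, so the 2 groups did not overlap. Among all probes, the animals of the 2 groups did not overlap in 1.5% and lay on opposite sides of 0 in 0.116%, and the value belongs to the comparison that chose the gene. The fit gave -0.22 ± 0.08 (SE, 95% confidence interval -0.40 to -0.05) for SCNT minus CJ, with 8 of 10 arrays below 0. For AI minus CJ it gave 0.39 ± 0.09 (0.21 to 0.57, or 1.31-fold), with 10 of 10 arrays above 0. These 2 comparisons share their CJ animals. From high to low the order of LTBP3 was AI, CJ, SCNT.

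SCNT minus AI through CJ was -0.61 ± 0.11 for LTBP3 (interval -0.83 to -0.38, or 1.52-fold lower), and this is the difference that chose the gene. It was -0.52 without AI animal B4 and lay between -0.66 and -0.52 when any 1 of the 14 animals was left out. Among all probes, 39 of 13824 probes (0.282%) passed an adjusted p of 0.05, 35 of them higher and 4 lower in SCNT. Without B4, 8 probes (0.0579%) passed and none of them was lower.

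The intercaruncular difference, not that of the caruncular pools, is taken here to have picked LTBP3. The genes were chosen with earlier results of these data known, so the pools are not shown to be free of that choice. The pool of SCNT named POOL1 was at -0.62 against the AI POOL2, and the SCNT POOL2 at -0.57 against the AI POOL1. The 4 arrays read -0.60 and -0.38 with SCNT in Cy5 and -0.76 and -0.64 with SCNT in Cy3, so all 4 lay below 0. The mean difference was -0.59 ± 0.08 (interval -0.80 to -0.39, or 1.51-fold lower). By limma it had an unadjusted p of 0.000644 and an adjusted p of 0.127 over all probes, and it did not pass. No probe passed in this comparison (0% of 13824), while 1744 had an unadjusted p under 0.05. When the 4 arrays were fitted singly with a dye term, the difference was again -0.59 and the adjusted p 0.038, but that fit counts the dye swaps of 2 pairs of pools as 4 replicates. The 2 spots of the array at -0.38 were at 0.23 and -0.99. The pools may hold the animals of the intercaruncular arrays, so the areas are not shown to be independent samples.

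Other values moved with the pools. Epithelial markers had a median of -0.34 in SCNT minus AI and none of the 9 measured was above 0. Their mean was -0.15 in SCNT POOL1 and -0.64 in SCNT POOL2. Trophoblast markers averaged 1.55 in SCNT POOL1 and 0.18 in SCNT POOL2. LTBP3 differed by little between these pools. The part of these cell types in the LTBP3 value was not tested.

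In IVF-ET against AI tissue LTBP3 showed no difference that passed the test. In the caruncular area the 5 IVF-ET animals were at 0.10 in B00049, -0.15 in B00054, 0.73 in B9073, -0.02 in B99058 and 0.07 in B99111 against their AI partners. In the intercaruncular area the same animals were at 0.08, 0.28, -0.57, 0.27 and 0.32. B9073 was thus the highest in one area and the lowest in the other. It met the AI animals B9109 and B99035 in both areas, at 0.91 and 0.56 in the caruncular and -0.87 and -0.27 in the intercaruncular arrays. The fitted differences were 0.15 ± 0.11 (interval -0.09 to 0.38; limma adjusted p = 0.698) and 0.08 ± 0.13 (-0.19 to 0.35; adjusted p = 0.893). The difference between the areas was 0.07 ± 0.17 (-0.28 to 0.42; adjusted p = 0.955).

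Epithelial markers moved with LTBP3 in animal B9073. Their mean over 9 genes was 0.72 in the caruncular and -0.58 in the intercaruncular arrays of that animal. Over the 10 intercaruncular arrays of the IVF-ET loop, LTBP3 and this mean correlated with r = 0.87, and over the 10 caruncular arrays with r = 0.57. Arrays that share an animal are not independent, so these values are a description. In the arrays with CJ the same correlation was 0.02 for SCNT and 0.33 for AI. Whether the share of epithelium plays a part in the LTBP3 values was not tested.

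TGIF1 was lower in SCNT than in CJ intercaruncular tissue, on every array and in every SCNT animal. The animals were at -0.66 in B811, -0.36 in B873, -0.53 in B888, -0.63 in B902 and -0.52 in B904. The fit gave -0.54 ± 0.13 (interval -0.82 to -0.26, or 1.45-fold lower; limma adjusted p = 0.00517), with 10 of 10 arrays below 0. Of all 13824 probes 2994 (21.7%) passed in this comparison, the background against which the call of TGIF1 stands. The call was lost without CJ animal B5, at -0.42 and an adjusted p of 0.0525, and held when any of the other 13 animals was left out. The 2 arrays with B5 were at -1.04 and -0.90 and the array of B811 with CJ animal B8 at -0.94, while the other 7 lay between -0.59 and -0.17.

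The AI animals did not move together in TGIF1. B2, B3 and B6 were at -0.26, -0.51 and -0.59 against CJ, in or near the range of the SCNT animals, and B4 was at 0.22. With all 4 animals, AI minus CJ was -0.22 ± 0.14 (interval -0.50 to 0.07; limma adjusted p = 0.401), with 6 of 10 arrays below 0 and 15% of probes passing. Without B4 it was -0.45 ± 0.14 and passed (adjusted p = 0.0241), and 20.4% of all probes then passed. SCNT minus AI through CJ was -0.32 ± 0.17 for TGIF1 (interval -0.68 to 0.04; adjusted p = 0.726) with B4 and -0.09 ± 0.17 without it. The order of TGIF1 was thus CJ, AI, SCNT from high to low, with a tested difference between the first and the last of them, and none that passed between neighbours while B4 was in the fit.

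**Figure D2:**
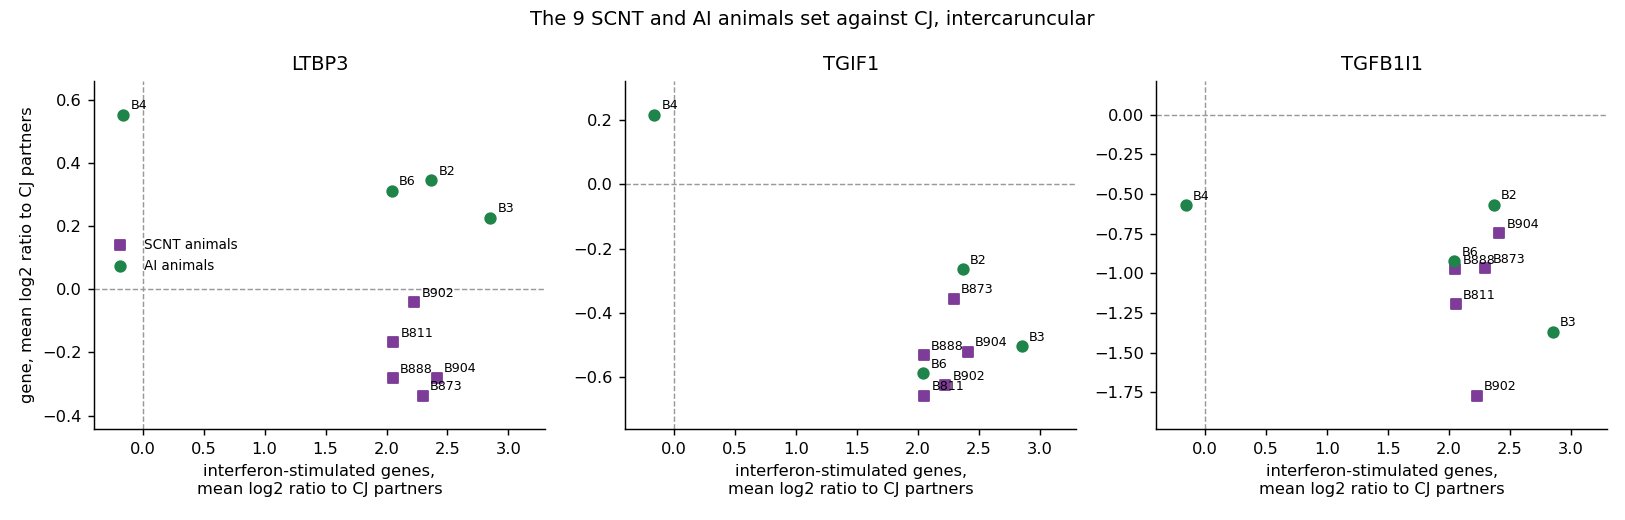
Mean log2 ratio of LTBP3, TGIF1 and TGFB1I1 (vertical axes, with their own scales) against the mean of 20 interferon-stimulated genes in the same animal, for 5 SCNT animals (squares) and 4 AI animals (circles) set against CJ partners. AI animal B4 is at -0.16 on the horizontal axis, has the highest LTBP3 and TGIF1 ratios of the 9 animals (0.55 and 0.22), and lies at -0.57 in TGFB1I1, next to AI animal B2.

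In caruncular tissue TGIF1 lay lower in IVF-ET than in AI animals, the value on which it was chosen. The 5 IVF-ET animals were at -0.24 in B00049, -0.39 in B00054, -0.29 in B9073, -0.34 in B99058 and -0.39 in B99111, a narrow range. The fit with a dye term gave -0.33 ± 0.04 (interval -0.42 to -0.24, or 1.26-fold lower). Of 13824 probes, 3 (0.0217%) passed in this comparison, all of them lower in IVF-ET, and 1260 had an unadjusted p under 0.05. The single arrays split by dye. With IVF-ET in Cy5 the 5 ratios ran from -0.77 to -0.58 (mean -0.67), and with IVF-ET in Cy3 from -0.10 to 0.13 (mean 0.01). The value near -0.33 in each animal is therefore the mean of 1 array of each kind, and 8 of the 10 arrays were below 0. Leaving out the dye term could not change the -0.33, since each dye has 5 of the 10 arrays. The error of 0.04 rests on that term, and the 10 turned ratios had an SD of 0.37. With each array scaled to a common spread the difference was -0.43.

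A gap of this kind was seen in one other set of arrays. In AI against CJ, TGIF1 had a mean of -0.46 with AI in Cy5 and 0.10 with AI in Cy3. In SCNT against CJ the means were -0.51 and -0.57, and in the intercaruncular IVF-ET loop 0.13 and 0.04. Each animal of the IVF-ET loops was hybridised once per dye, so a constant dye effect cancels in the difference.

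The intercaruncular IVF-ET animals did not repeat the narrow range. TGIF1 was at -0.10 in B00049, -0.13 in B00054, -0.78 in B9073, 0.81 in B99058 and 0.63 in B99111. These animals thus lay on both sides of 0, and the fitted difference was 0.09 ± 0.18 (interval -0.30 to 0.47; limma adjusted p = 0.919). In that area 1 of 13816 probes (0.00724%) passed. The difference between the areas was -0.42 ± 0.21 (interval -0.85 to 0.01), given without a test because the caruncular value chose the gene, and 1 probe (0.00723%) passed there. In the caruncular pools TGIF1 was -0.15 ± 0.09 in SCNT minus AI (interval -0.38 to 0.09; adjusted p = 0.596), with arrays at -0.40, -0.04, -0.06 and -0.08.

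**Figure D3:**
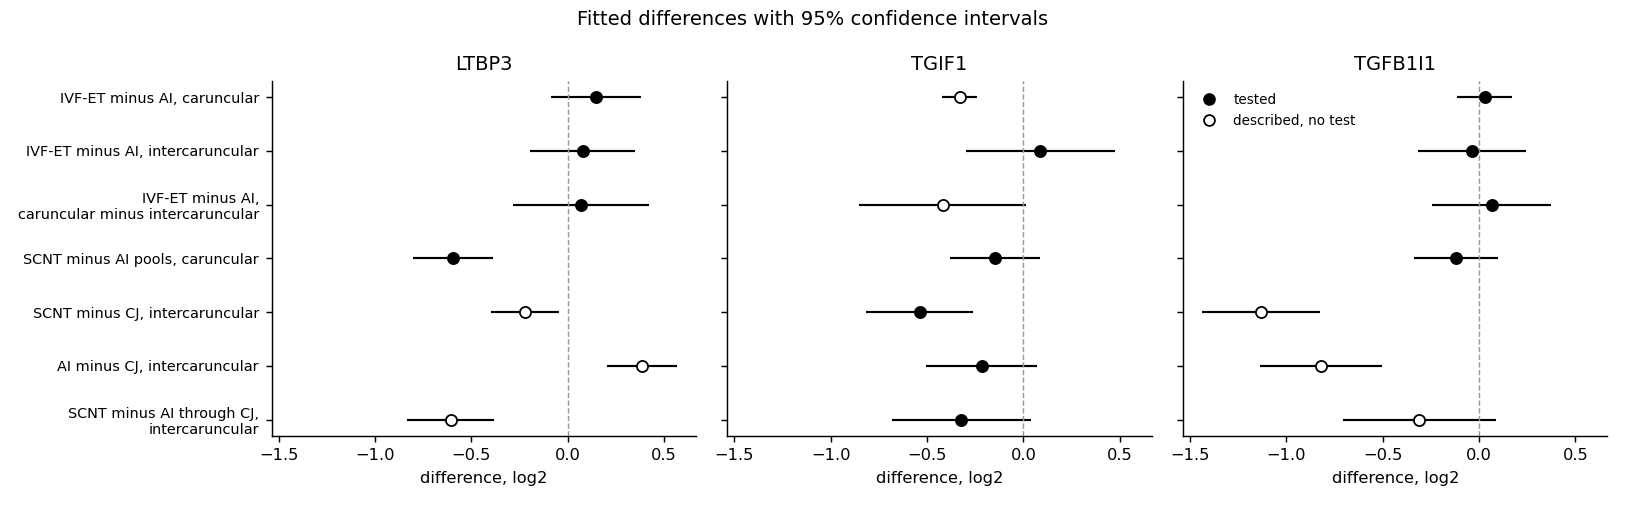
Fitted log2 differences of LTBP3, TGIF1 and TGFB1I1 in 7 comparisons (points) with 95% confidence intervals (lines). Filled points were tested and open points are descriptions of values that chose, or may have chosen, the gene. The interval of LTBP3 in the pools runs from -0.80 to -0.39 and that of TGIF1 in SCNT minus CJ from -0.82 to -0.26.

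TGFB1I1 lay lower than in CJ on all 20 intercaruncular arrays. The SCNT animals were at -1.19 in B811, -0.97 in B873, -0.97 in B888, -1.77 in B902 and -0.75 in B904. The AI animals were at -0.57 in B2, -1.37 in B3, -0.57 in B4 and -0.92 in B6. The 2 sets of animals overlap, with B902 the lowest and B2 and B4 the highest. SCNT minus CJ was -1.13 ± 0.15 (or 2.19-fold lower) and AI minus CJ -0.82 ± 0.15 (or 1.77-fold lower), and the comparisons share their CJ animals. Without B4, AI minus CJ was -0.95. SCNT minus AI through CJ was -0.31 ± 0.19 with B4 and -0.18 ± 0.22 without it. For TGFB1I1 the order was CJ, AI, SCNT from high to low, and the gap of SCNT and AI was within their spread.

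B4 carried a low TGFB1I1 ratio without raised interferon-stimulated genes. Its 4 arrays read -0.83, -0.44, -0.39 and -0.62, and its smooth muscle markers had a mean of -0.23, against -1.08 to -0.96 in B2, B3 and B6.

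Between IVF-ET and AI, TGFB1I1 showed no difference that passed. In the caruncular area the IVF-ET animals were at 0.24 in B00049, 0.02 in B00054, 0.14 in B9073, -0.15 in B99058 and -0.11 in B99111, a difference of 0.03 ± 0.07 (interval -0.11 to 0.17; limma adjusted p = 0.902). In the intercaruncular area they were at 0.20, -0.11, 0.31, -0.18 and -0.40, a difference of -0.04 ± 0.13 (interval -0.32 to 0.24; adjusted p = 0.957). The difference between the areas was 0.07 ± 0.15 (adjusted p = 0.949). In the caruncular pools SCNT minus AI was -0.12 ± 0.09 (adjusted p = 0.641), with arrays at -0.26, -0.08, -0.27 and 0.13. Caruncular tissue of CJ animals was not analysed here.

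Smooth muscle and stromal markers moved with TGFB1I1. Over the 44 arrays TGFB1I1 correlated with the mean of 10 smooth muscle markers at r = 0.86 and with 8 stromal fibroblast markers at r = 0.76. With 20 interferon-stimulated genes r was -0.86. These r values were taken on the ratios as deposited, before turning, where a difference from CJ changes sign with the dye. They can therefore not be told apart from the differences of these genes from CJ. After turning, the arrays with CJ lay low in TGFB1I1 and in the muscle markers and high in the interferon-stimulated genes. Within the SCNT arrays with CJ, after removal of the dye effect, r with smooth muscle markers was 0.03, within the AI arrays with CJ 0.58, in the intercaruncular IVF-ET loop 0.61 and in the caruncular loop -0.78. Each of these sets has 10 arrays that share animals.

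In SCNT minus CJ 6 of 10 smooth muscle markers fell, where 11.3% of all probes did, with ACTG2 at -2.67 ± 0.25, TAGLN at -2.28 ± 0.26 and MYLK at -2.01 ± 0.24. Of 8 stromal fibroblast markers 7 fell. Their animal means ran from -1.31 to -0.97 and from -2.45 to -1.84 in the SCNT animals. DES, a defining muscle marker, was at 0.02, and a second probe of DES at -0.17 (limma adjusted p = 0.258). Second probes of MYLK and TPM2 were at -1.93 and -0.99. Against CJ, 3 of 10 smooth muscle and 4 of 8 stromal markers fell in AI, where 8.08% of all probes did. Without B4 these counts were 5 and 7, and 10.3% of all probes fell. The part of either cell type in the TGFB1I1 values was not tested.

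**Figure D4:**
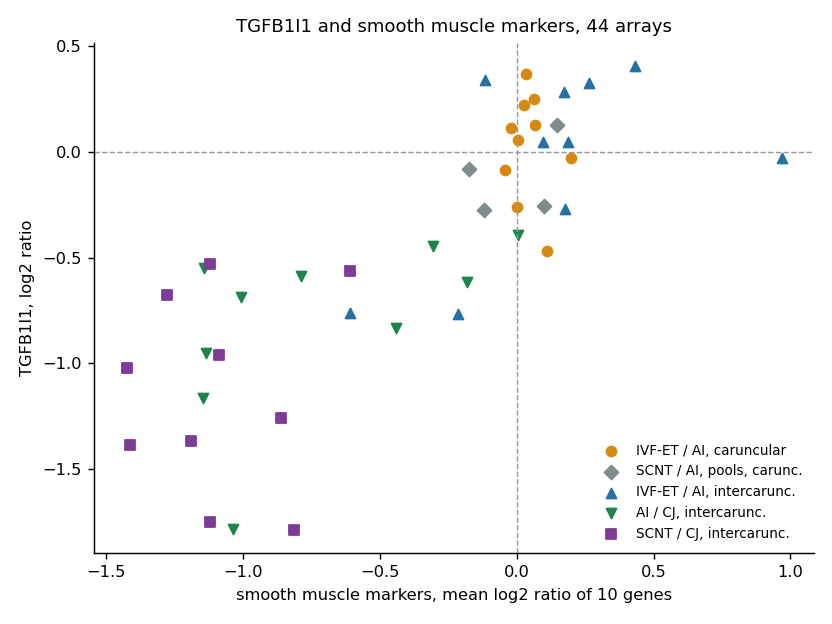
TGFB1I1 (vertical axis, log2 ratio) against the mean log2 ratio of 10 smooth muscle markers (horizontal axis) on the 44 arrays, with 1 symbol per set of arrays. All 20 arrays with CJ lie below 0 in TGFB1I1, and within the 10 SCNT arrays r was 0.03.

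The pathway around the 3 genes was read from 105 other genes, of which 68 are measured. The list was written with results of these data known. Its target genes share TAGLN and ACTA2 (not measured) with the muscle markers and COL1A1, COL1A2 and COL3A1 with the stromal markers. FBN1, FBN2 and ELN are also in the list of microfibrils and elastic fibres, and DCN is also a stromal marker. Counts of these lists thus overlap. In SCNT minus CJ 33 of the 68 fell and 6 rose, with a median of -0.31, where 11.3% of all probes fell and 10.4% rose with a median of 0.01. In AI minus CJ 19 fell and 3 rose, with a median of -0.13, where 8.08% of all probes fell and 6.92% rose. The AI count rests on single animals. Without B4 it was 27 falls and 5 rises, where 10.3% of all probes fell and 10.1% rose. Counting both directions, 13 genes were called without AI animal B3 and 14 without AI animal B2 or CJ animal B7. Both comparisons share the CJ animals.

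Ligands and latency proteins, the role of LTBP3, fell in SCNT minus CJ in 6 of 7 genes, where 11.3% of all probes fell. FBN2 and FBN1, fibrillins that anchor latent complexes, were at -1.79 ± 0.29 and -0.84 ± 0.14, and LTBP1 was at -1.88 ± 0.38. TGFB1, TGFB2 and TGFB3, the ligands, were at -0.57, -0.33 and -0.91 and passed. In AI minus CJ 3 of the 7 passed, FBN2 at -1.09 ± 0.30, FBN1 at -0.49 ± 0.14 and TGFB3 at -0.76 ± 0.25, and without B4 5 of them fell, with FBN2 at -1.85 and LTBP1 at -1.92 ± 0.22. LTBP3 was at 0.39 in this comparison, where 8.08% of all probes fell with B4 and 10.3% without it. In the caruncular pools FBN2 was at 0.59 ± 0.09 (limma adjusted p = 0.127), the opposite sign to LTBP3 there, and LTBP1 at -0.20.

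Of 15 genes of microfibrils and elastic fibres, to which LTBP3 belongs by its place in the matrix, 10 fell and 1 rose in SCNT minus CJ. There 11.3% of all probes fell and 10.4% rose. LOXL2, a lysyl oxidase, was at -2.24 ± 0.34 and FBLN5, a fibulin, at -1.19 ± 0.19. The gene that rose was EFEMP1 at 0.94 ± 0.20. In AI minus CJ 5 fell and EFEMP1 rose, at 0.92 ± 0.20, and 9 fell without B4. The share of all probes that fell was 8.08% with B4 and 10.3% without it.

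Of 9 activators of latent TGF-beta, PLAU, ITGB1 and THBS1 fell in SCNT minus CJ, at -1.60 ± 0.18, -0.58 ± 0.11 and -0.77 ± 0.15. The integrin ITGB5 rose by 0.66 ± 0.18, and 11.3% of all probes fell and 10.4% rose in this comparison. For AI minus CJ 3 activators fell, PLAU at -1.17, ITGB1 at -0.53 and THBS1 at -0.53. The share of all probes that fell there was 8.08%, and 10.3% without B4. Without B4 the activators called were 5 lower and 1 higher, and MMP2, a matrix protease, was then at -1.77 ± 0.21 in place of -0.13. In SCNT minus CJ, whose spread is estimated in the same fit, 5 activators fell without B4 (14.3% of all probes), MMP2 at -1.37 and MMP14 at -0.71 in addition. THBS1, thrombospondin 1, was the only gene of the list that passed in IVF-ET minus AI, at 0.80 ± 0.10 in the intercaruncular area (limma adjusted p = 0.0488), where it was the 1 probe called. That call was lost whichever of the 10 animals was left out.

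Receptors went both ways. In SCNT minus CJ the co-receptor TGFBR3 rose by 1.14 ± 0.23 and TGFBR2 by 0.54 ± 0.13, while ACVRL1 and ACVR1 were at -0.40 ± 0.10 and -0.43 ± 0.11. ACVR2A rose by 0.32 ± 0.10. A second probe of TGFBR2 was at 0.31 (adjusted p = 0.0619), the same direction without passing, and one of ACVR2A at 0.03 (adjusted p = 0.889). Neither gene was thus called on both probes. TGFBR3 rose by 0.87 ± 0.24 and TGFBR2 by 0.46 ± 0.14 in AI minus CJ, where the second TGFBR2 probe was at 0.18 (limma adjusted p = 0.427). Without B4 the call of TGFBR2 was lost, at 0.43 ± 0.16 (limma adjusted p = 0.072), and TGFBR3 rose by 1.41 ± 0.22.

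SMAD2, a receptor-activated SMAD, was at -0.50 ± 0.08 in SCNT minus CJ and at -0.52 ± 0.09 in AI minus CJ, and passed in each. SMAD4, the common partner, was at -0.01 in SCNT minus CJ, and SMAD3 at -0.14. CREBBP, a coactivator of SMADs, rose by 0.57 ± 0.13 in AI minus CJ. Without B4 both kept their calls there, SMAD2 at -0.58 and CREBBP at 0.50.

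Of 12 inhibitors and corepressors, the role of TGIF1, 4 fell and 1 rose in SCNT minus CJ. There 11.3% of all probes fell and 10.4% rose. PMEPA1, which TGF-beta induces and which limits it, was at -2.50 ± 0.31, DCN at -0.95 ± 0.22, SKIL, a corepressor like TGIF1, at -0.29 ± 0.10, and SMURF2 at -0.25 ± 0.09. The activin binder FST rose by 1.06 ± 0.25. CTBP1 and HDAC1, known partners of TGIF1 in repression, were at -0.01 and -0.04 and did not pass. With B4 in the fit PMEPA1 alone passed in AI minus CJ, at -1.99 ± 0.32, where 8.08% of all probes fell. Without B4 it was at -2.95 ± 0.17, DCN fell as well (-0.89 ± 0.19) and FST rose by 0.94 ± 0.25. The other TALE homeobox genes measured, MEIS1, MEIS2 and IRX3, were at 0.18, 0.05 and -0.10 in SCNT minus CJ and did not pass.

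Of 6 activin, BMP and GDF ligands, BMP7 and BMP6 fell in SCNT minus CJ, at -0.52 ± 0.11 and -0.49 ± 0.10. The share of all probes that fell was 11.3%. For AI minus CJ limma called 0 of the 6, and 1 had an unadjusted p under 0.05, as had 3446 of all 13824 probes.

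Of 21 target genes, 15 fell and 1 rose in SCNT minus CJ, and 11 fell in AI minus CJ. The shares of all probes that fell were 11.3% and 8.08%, and 10.3% in AI minus CJ without B4. Without B4 the AI count was 14 lower and 1 higher, the latter CCN2 at 1.96 ± 0.30. SNAI2, a transcription factor of mesenchymal cells, was at -2.97 ± 0.14 in SCNT and -2.49 ± 0.15 in AI against CJ. TIMP1, an inhibitor of matrix proteases, was at -1.65 ± 0.15 and -1.10 ± 0.15, and TAGLN at -2.28 ± 0.26 and -1.87 ± 0.26. The target that rose in SCNT minus CJ was CCN2, a matricellular protein, at 1.74 ± 0.36.

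Of 12 focal adhesion partners of TGFB1I1, 5 fell in SCNT minus CJ and 2 in AI minus CJ, or 4 without B4. The shares of all probes that fell were 11.3% and 8.08%, or 10.3% without B4. PARVA, parvin alpha, was at -0.91 ± 0.11 and -0.57 ± 0.12, and CSRP1, a LIM protein of smooth muscle, at -0.67 ± 0.10 and -0.47 ± 0.11. ZYX, zyxin, was at -0.85 ± 0.16 in SCNT minus CJ. In AI minus CJ it was at -0.06 with B4 and -0.50 ± 0.12 without it. The median over the 12 genes was -0.04 in SCNT minus CJ. Their mean ran from -0.33 to -0.15 in the 5 SCNT animals.

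In the other comparisons the list had few or no calls. In caruncular IVF-ET minus AI limma called 0 of the 68 genes, with 7 at an unadjusted p under 0.05, as were 1260 of all 13824 probes. In the SCNT and AI pools it called 0, with 21 at an unadjusted p under 0.05, as were 1744 of all 13824 probes. In these pools it called 3 with the first spot alone and 4 with the 4 arrays fitted singly. In SCNT minus AI through CJ it called 0, with 13 at an unadjusted p under 0.05, as were 1058 of all 13824 probes. In that last comparison FBN2 and LTBP1 were at -0.70 ± 0.38 and -1.11 ± 0.49 with B4, and at 0.06 and 0.03 without it. The median of the ligands and latency proteins was -0.35 with B4 and -0.03 without it, while LTBP3 was at -0.61 and -0.52.

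**Figure D5:**
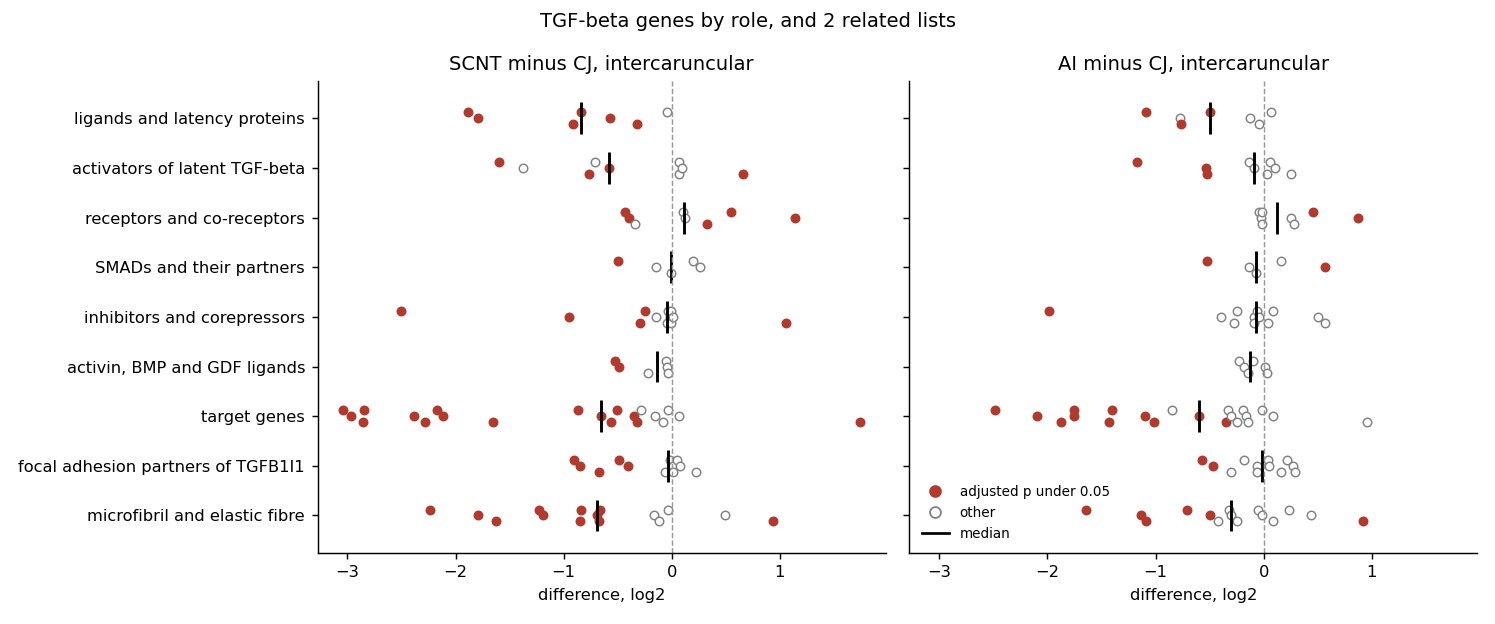
Log2 differences of the measured TGF-beta genes by role, and of 2 related lists (focal adhesion partners and microfibril genes), in SCNT minus CJ and AI minus CJ. Each point is 1 gene, red where the limma adjusted p is under 0.05, and black bars are medians. Of 7 ligands and latency proteins 6 passed as lower in SCNT minus CJ and 3 in AI minus CJ, and 15 and 11 of 21 target genes, with AI animal B4 in the fit. The shares of all probes that passed as lower were 11.3% and 8.08%.

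Across the 44 arrays the 3 genes did not follow one another closely. Pearson's r was 0.48 for TGIF1 and TGFB1I1, 0.34 for TGIF1 and LTBP3, and -0.08 for LTBP3 and TGFB1I1. The likeness of all 8066 other named genes with a value on every array was ranked in the same way, as a description over arrays that share animals. All these r values were taken on the ratios as deposited, before turning, where a difference from CJ changes sign with the dye.

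The 5 genes most like TGIF1 were SSRP1, a histone chaperone (r = 0.82), PKIG, an inhibitor of protein kinase A (0.80), SMARCB1, a chromatin remodelling subunit (0.79), MLF2 (0.76) and PDLIM4, a LIM protein (0.75). HOXA9, SLC25A12 and LAMTOR4 were the least like it, at -0.73, -0.72 and -0.72. SSRP1 was at -0.44 ± 0.10 in SCNT minus CJ and at -0.07 ± 0.11 in AI minus CJ, or -0.24 without B4. LTBP3 was most like CCDC88C (0.70), PI4KA, a lipid kinase (0.70), the homeobox gene HOXB8 (0.69), ST14, an epithelial protease (0.67), and HOXB2 (0.66). COX6C and NDUFB6, parts of the respiratory chain, and TOMM5, of mitochondrial import, were least like it, at -0.71, -0.66 and -0.70.

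By this r, TGFB1I1 had closer neighbours than the other 2 genes. Genes with a large difference from CJ share the sign change of the dye swap. The closeness can therefore not be told apart from the difference of TGFB1I1 from CJ. PYCR1, an enzyme of proline synthesis, had r = 0.92, and SEC61B, GADD45G, P2RY14 and ELOVL5 had 0.90. NUPR1, a stress-response gene, AGRN, which encodes agrin, and GABARAPL1, of autophagy, were at -0.91, -0.88 and -0.86. PYCR1 lay at -2.14 ± 0.14 in SCNT and -1.85 ± 0.14 in AI against CJ, and NUPR1 at 2.73 ± 0.23 and 1.84 ± 0.24. Without B4 the AI values were -1.98 and 2.24.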

How the data were processed

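Each deposited value is a log2 ratio between the dyes of 1 spot (27648 spots, 13824 probes). Base 2 was tested on 331 values below -4, of which 100% were log2 of a ratio with 4 decimals (tolerance 6e-05). How the authors corrected background and normalized is not stated in the sources used here. Nothing was rescaled, as medians of the arrays ran from -0.0164 to 0.0124; their SD was 0.221 to 0.62. The number of animals, and of pools, limits the precision.

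Generalised least squares fitted a dye effect per probe, and arrays with an animal in common shared a correlation (0.13 caruncular, 0 intercaruncular, 0.12 with CJ). Errors are SE of these fits, moderated by limma 3.58.1 in R 4.3.3 and adjusted by Benjamini-Hochberg over all probes with a threshold of 0.05. Swapped pool pairs were averaged and tested against 0. The fits were tested on simulated data with known differences. The share of spread due to animals was set there and need not match that of these arrays. P-values rest on the residual spread between arrays, or between swapped pool pairs. With a correlation of 0, intercaruncular arrays of the IVF-ET loop that share an animal counted as independent.

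The 3 genes, the lists and the tests were chosen with earlier results of these data known. Other genes named are up to 3 called members per role with the smallest p, and the 5 most and 3 least alike; further ligands, receptors, SMADs, partners of TGIF1 and genes of a rare direction were named after their values were seen.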

Additional observations from a re-analysis of the deposited data

Results flagged for a closer look

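LTBP3 in IVF-ET animal B9073 stood apart in both areas. In the caruncular area it was at 0.73 with the next animal at 0.10, a gap of 0.714 of the range of 5 animals, and in the intercaruncular area at -0.57 with the next at 0.08, a gap of 0.730. The 3 genes gave 18 sets of animal values, which share animals, and these 2 were the sets with such a value, both of the same gene and animal. For sets of independent values chance would give about 1 in 20, and these values are not independent.

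LTBP3 lay on opposite sides of 0 in the SCNT and AI animals relative to CJ. Every SCNT animal was below 0 and every AI animal above it, with a difference of -0.58 between the means of the animals. Among all probes 16 of 13824 (0.116%) showed such a split in either direction. These values belong to the comparison that chose the gene, so the difference is a description and was not tested.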

How the results depend on the processing

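The sign changed with the first spot of each probe alone for TGFB1I1 in caruncular IVF-ET minus AI (-0.09) and in the difference between areas (-0.07). Scaling the arrays gave -0.43 for caruncular TGIF1. The count of called TGF-beta genes in intercaruncular IVF-ET minus AI was 0 with the first spot, with scaled arrays and without each animal (0 to 0). In the pools it was 3 with the first spot and 4 with 4 arrays and a dye term, a fit that counts dye swaps as replicates and in which LTBP3 passed at -0.59.

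With 1 animal left out, IVF-ET minus AI ran from -0.02 to 0.1 for caruncular TGFB1I1. In the intercaruncular area it ran from -0.1 to 0.3 for TGIF1, -0.02 to 0.24 for LTBP3 and -0.12 to 0.05 for TGFB1I1. The difference between areas ran from -0.65 to -0.21 for TGIF1, -0.24 to 0.19 for LTBP3 and -0.01 to 0.19 for TGFB1I1. TGIF1 ran from -0.61 to -0.42 in SCNT minus CJ and from -0.45 to -0.12 in AI minus CJ, where the count of called TGF-beta genes ran from 13 to 32. The causes were not tested. Linking the areas of an animal by a replicate block per animal changed no call (TGIF1 -0.42). Ratios carry no signal over background, so weak spots could not be set aside, and pools allow 2 values per gene.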
